A study of Mus musculus with 46 samples.

Results

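This section describes 6 genes of serotonin synthesis, transport and breakdown, Tph2, Slc6a4, Gch1, Qdpr, Maoa and Maob, out of 15499 genes counted in the dorsal raphe nucleus of mice. They were chosen by name, for the steps their proteins carry out, at a time when earlier results of these data were known. All 6 were found in the tables of each age and passed every filter on low counts. RNA of 46 samples was sequenced, all from female F1 hybrids of the strains C57 and CAST, and each gene has a count for either parental allele. The hybrids came from crosses labelled F1i and F1r. There were 7 F1i and 7 F1r samples at postnatal day 5 (P5), 7 F1i and 7 F1r samples at P15, and 9 F1i and 9 F1r adult samples. The mother strain of either cross is not given in the labels. They give no treatment and no exact age for adults, and nothing in them says that the samples of a group are separate animals, so p-values measure the spread between these samples.

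Serotonin is made from tryptophan by tryptophan hydroxylase, encoded in the brain by Tph2, and then by aromatic amino acid decarboxylase, encoded by Ddc. The hydroxylase needs the cofactor tetrahydrobiopterin, whose synthesis begins with GTP cyclohydrolase (Gch1), and dihydropteridine reductase (Qdpr) restores the cofactor after each round. Released serotonin is taken back into the neuron by the transporter encoded by Slc6a4 and is broken down by the monoamine oxidases A and B. The dorsal raphe nucleus is a main source of serotonin for the forebrain. Maoa and Maob lie next to each other on the X chromosome, where each cell of a female silences either the maternal or the paternal copy. Tph2, Slc6a4, Gch1 and Qdpr lie on chromosomes 10, 11, 14 and 5.

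The total per sample was 3692778 to 13085952 counts. Levels are given as CPM (counts scaled to a common library size) of both alleles together, scaled by the trimmed mean of M values (TMM), and the allele balance as the CAST share of the counts of a gene. Levels are compared between samples and not between genes. Of 8 serotonin neuron markers outside the 6 genes, 7 were in the tables (Ddc, Slc17a8, Htr1a, Fev, Gata3, Lmx1b and Gata2). Their summed level was 336 to 721 CPM per sample, and none was at 0 in all samples of a group, so the dissected tissue held serotonin neurons in every group. Catecholamine neuron markers, which mark cells that share Gch1, Qdpr and the oxidases, summed to 40.6 to 97.3 CPM. Certain libraries stood apart within their group. The adult F1i sample labelled 1_1 deviated from its group mean by an SD of 0.35 log2 units over genes, against 0.12 to 0.20 in the other adult samples. At P15 the F1i samples 1 and 2 and the F1r sample 1 stood at an end of the first principal component, which held 57.1% of the variance within groups, and deviated by 0.24 to 0.29, against 0.12 to 0.22 in the other P15 samples. For the results that these samples bear on most, values without them are given as well. Each age is a table of its own, so a difference between ages and a difference between tables cannot be told apart.

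The promoters of 5 of the 6 genes were found in RefSeq by symbol, and the 4 of the autosomal members are printed here, the genes whose levels and allele ratios are not tied to the balance of the X chromosomes. Each line holds the 250 bases before the annotated start, read 5′ to 3′ on the strand of the gene, in the build GRCm38.p6. They lie at chr10:115185023-115185272 (minus strand) for Tph2, chr11:76998347-76998596 (plus) for Slc6a4, chr14:47189414-47189663 (minus) for Gch1 and chr5:45450230-45450479 (minus) for Qdpr. Capitals mark matches to the motifs searched.
Tph2: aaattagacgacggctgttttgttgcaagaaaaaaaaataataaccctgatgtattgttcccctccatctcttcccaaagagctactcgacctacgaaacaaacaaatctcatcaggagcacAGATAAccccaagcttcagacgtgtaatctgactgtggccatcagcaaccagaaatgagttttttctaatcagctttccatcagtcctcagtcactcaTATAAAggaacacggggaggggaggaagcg
Slc6a4: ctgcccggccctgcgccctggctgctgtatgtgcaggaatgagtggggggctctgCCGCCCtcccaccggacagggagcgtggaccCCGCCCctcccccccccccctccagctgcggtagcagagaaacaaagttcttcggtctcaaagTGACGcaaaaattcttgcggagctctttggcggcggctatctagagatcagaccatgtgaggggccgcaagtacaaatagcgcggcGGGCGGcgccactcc
Gch1: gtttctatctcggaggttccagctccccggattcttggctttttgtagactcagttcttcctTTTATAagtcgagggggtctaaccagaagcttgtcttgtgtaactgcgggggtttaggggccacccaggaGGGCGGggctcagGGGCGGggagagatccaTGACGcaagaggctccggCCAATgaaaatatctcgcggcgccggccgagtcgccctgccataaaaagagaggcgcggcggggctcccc
Qdpr: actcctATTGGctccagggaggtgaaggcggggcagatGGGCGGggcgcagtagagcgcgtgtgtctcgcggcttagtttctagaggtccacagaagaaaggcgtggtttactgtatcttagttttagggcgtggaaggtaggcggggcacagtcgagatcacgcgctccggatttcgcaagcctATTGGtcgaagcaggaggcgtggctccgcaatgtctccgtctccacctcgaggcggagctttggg
Both strands were searched for the GC box GGGCGG, the CCAAT box, the TATA box TATAAA, the cyclic AMP response core TGACG, the GATA site AGATAA and the ETS site CCGGAA, and no matches overlapped. Of 32851 promoters of the same length, 32.7% held the GC box, 33.8% the CCAAT box, 12.4% the TATA box, 17.8% the cyclic AMP core, 9.99% the GATA site and 12% the ETS site. Tph2 held a TATA box that began 30 bases before the start and a GATA site 128 bases before it, and its GC content of 43.6% was below the 64.8% of Slc6a4, the 59.2% of Gch1 and the 59.6% of Qdpr. Slc6a4 held GC boxes 195, 164 and 15 bases before the start and a cyclic AMP core at 101. Gch1 held GC boxes at 118 and 105, a CCAAT box at 70, a cyclic AMP core at 88 and a TATA box on the other strand at 188. Qdpr held a GC box at 212 and CCAAT boxes at 244 and 65. No motif was held by all 4, and the ETS site was in none of these windows. A match is a description of the letters and not of a site in use.

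The level of Tph2, the gene of the rate-limiting enzyme of serotonin synthesis, was 5.32-fold higher in mean CPM at P15 than at P5 and did not pass the test between P15 and adults. At P5 it had 81.9, 94.1 and 108 CPM in F1i (lowest, median and highest of 7 samples) and 81.4, 117 and 134 CPM in F1r. At P15 it had 445, 546 and 610 CPM in F1i and 397, 561 and 777 CPM in F1r, and in adults 459, 566 and 694 CPM in F1i and 467, 524 and 637 CPM in F1r. Every P15 and adult sample was above every P5 sample, and the P15 and adult ranges overlapped. The share of all genes whose ages do not overlap is not given here, so such a gap is not particular to a member. With both crosses weighing equally in edgeR's quasi-likelihood test, the log2 change was 2.40 ± 0.08 (SE) for P15 over P5 (adjusted p = 3.6e-32) and -0.01 ± 0.07 for adult over P15 (adjusted p = 0.862). Without the 3 P15 samples that stood apart these were 2.36 and 0.04. All adjusted p-values follow Benjamini and Hochberg over all genes tested, with a call at 0.05. Of all genes, 83.4% were called for P15 over P5, and all 6 members were among them, all higher, a direction that 42.5% of genes took. In bulk tissue, fewer cells of a type and less RNA per cell cannot be told apart.

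**Figure D1:**
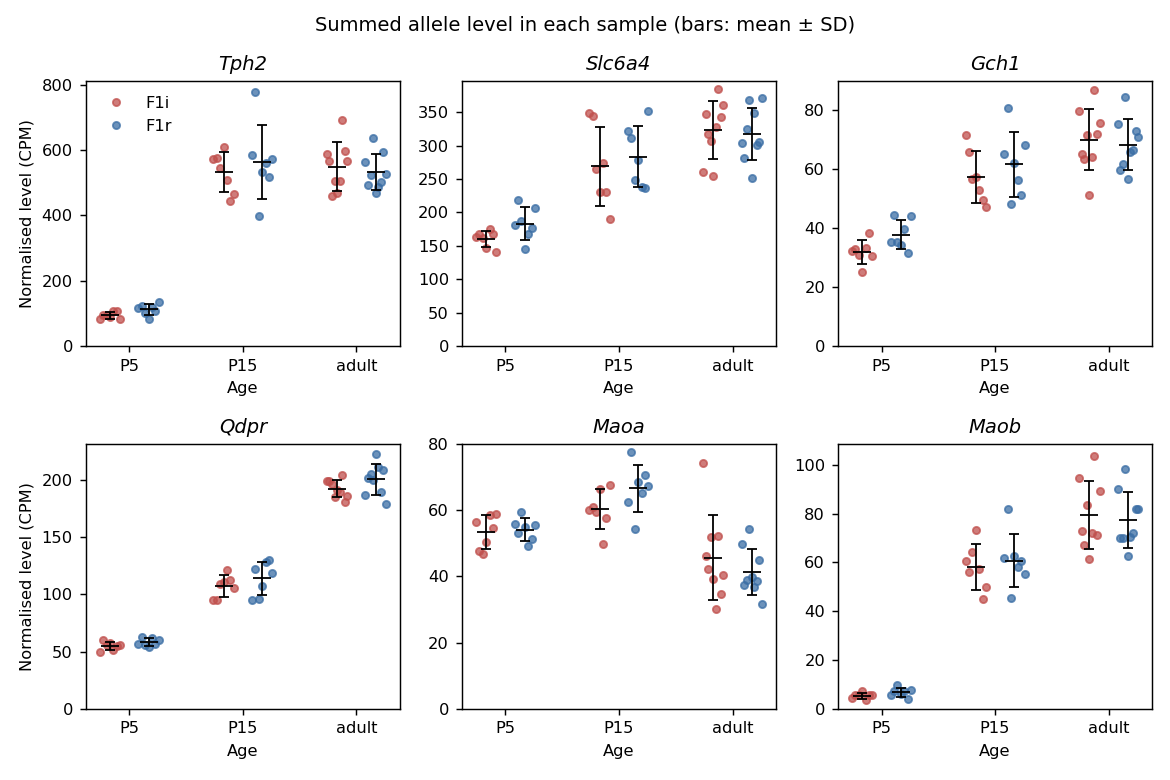
Summed level of both alleles in normalised CPM (vertical axis, from 0) for each of the 6 genes by age, with F1i left of F1r, a point for each sample and bars for the mean ± SD (n = 7, 7, 7, 7, 9 and 9). Tph2, Gch1 and Maob separate P5 from the later ages completely, and Qdpr separates all 3 ages. Maoa is lower in most adult samples, with the adult F1i sample 1_1 at 74.1 CPM above the rest of its group.

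Slc6a4, the serotonin transporter gene, was higher at each later age, with a smaller step than Tph2 between P5 and P15. Its level was 141, 163 and 175 CPM in F1i and 145, 181 and 218 CPM in F1r at P5. At P15 it was 190, 265 and 349 CPM in F1i and 236, 279 and 352 CPM in F1r, and in adults 255, 328 and 385 CPM in F1i and 252, 306 and 371 CPM in F1r. Of the 14 P15 samples 13 were above every P5 sample, and all 18 adult samples were. The log2 change was 0.67 ± 0.08 for P15 over P5 (adjusted p = 5.5e-11) and 0.22 ± 0.07 for adult over P15 (adjusted p = 0.00706). The 3 P15 samples that stood apart had 349, 345 and 322 CPM, 3 of the 4 highest values at P15. Without them the changes were 0.56 ± 0.07 (adjusted p = 1.9e-09) and 0.34 ± 0.07 (adjusted p = 2.2e-05). With F1r samples alone the adult over P15 change was 0.15 and missed the call (adjusted p = 0.132).

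The genes of the cofactor differed in their course. Gch1, whose enzyme starts tetrahydrobiopterin synthesis, had 25, 32.2 and 38.3 CPM in F1i and 31.4, 35.5 and 44.5 CPM in F1r at P5. It had 47.1, 56.8 and 71.7 CPM in F1i and 48.1, 61.9 and 80.9 CPM in F1r at P15, and 51.3, 71.7 and 86.8 CPM in F1i and 56.7, 66.5 and 84.6 CPM in F1r in adults. The P5 samples lay below all later samples, while P15 and adult samples overlapped. The log2 change was 0.76 ± 0.08 (adjusted p = 1.7e-12) for P15 over P5 and 0.23 ± 0.07 (adjusted p = 0.00299) for adult over P15. Without the 3 P15 samples that stood apart the changes were 0.68 and 0.32. The adult change missed the call with F1r samples alone (0.14, adjusted p = 0.163).

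Qdpr, whose enzyme regenerates the cofactor, was higher at each age without any overlap. It had 49.8, 55.5 and 59.7 CPM in F1i and 53.6, 56.6 and 62.7 CPM in F1r at P5, 94.8, 109 and 121 CPM in F1i and 95.1, 118 and 129 CPM in F1r at P15, and 181, 191 and 204 CPM in F1i and 179, 202 and 223 CPM in F1r in adults. The log2 changes were 0.95 ± 0.04 (adjusted p = 4.1e-25) and 0.83 ± 0.04 (adjusted p = 1.1e-23). The 3 P15 samples that stood apart held the lowest values of that age, at 94.8, 95.2 and 95.1 CPM, and without them the changes were 0.99 and 0.80. Qdpr is not particular to serotonin neurons, and markers of glia moved over the same ages: 10 of 10 myelin genes and 7 of 8 astrocyte genes were higher at P15 than at P5, and 8 of 10 myelin genes were lower in adults than at P15. The summed myelin level was 1438 to 2386 CPM at P5, 12455 to 22722 CPM at P15 and 5311 to 8686 CPM in adults, and its part in the level of Qdpr was not tested.

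The monoamine oxidase genes took different courses. Maob, whose enzyme is found in serotonin neurons and astrocytes, had 3.62, 5.55 and 7.34 CPM in F1i and 4.09, 7.09 and 9.90 CPM in F1r at P5. It had 45.0, 57.2 and 73.3 CPM in F1i and 45.3, 60.5 and 81.9 CPM in F1r at P15, and 61.4, 72.9 and 104 CPM in F1i and 62.4, 72.2 and 98.2 CPM in F1r in adults. Every later sample was above every P5 sample, and the log2 change of 3.27 ± 0.11 for P15 over P5 (adjusted p = 3.1e-31) was the largest of the 6 genes. A further change of 0.42 ± 0.08 separated adults from P15 (adjusted p = 5.3e-06). The summed level of 8 astrocyte markers was 3529 to 4085 CPM at P5, 7510 to 9694 CPM at P15 and 8620 to 10332 CPM in adults, and its part in the level of Maob was not tested.

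Maoa, whose enzyme has the higher affinity for serotonin, was highest at P15 and lowest in adults. It had 46.8, 54.7 and 58.9 CPM in F1i and 49.0, 55.0 and 59.6 CPM in F1r at P5, 49.9, 60.1 and 67.8 CPM in F1i and 54.4, 67.2 and 77.7 CPM in F1r at P15, and 30.2, 42.1 and 74.1 CPM in F1i and 31.7, 38.8 and 54.3 CPM in F1r in adults. The ranges of the ages overlapped, and 14 of 18 adult samples were below every P15 sample. The log2 change was 0.22 ± 0.08 for P15 over P5 (adjusted p = 0.0146), and missed the call with F1i samples alone (0.15, adjusted p = 0.284). For adult over P15 it was -0.54 ± 0.08 (adjusted p = 3.0e-08), and -0.58 without the adult F1i sample 1_1 (adjusted p = 6.1e-11). Adult over P15 was called for 5 of the 6 genes, 4 higher and Maoa lower, beside 74.7% of all genes, 37% higher and 37.7% lower. Adult over P5 was called for 6 of 6 beside 82.1% of all genes, and Maoa was again the gene that was lower (-0.32 ± 0.08, adjusted p = 2.4e-04, and adjusted p = 0.0645 with F1i samples alone). Shares this near the background say nothing particular of the 6 genes.

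Other genes of the pathway, listed by their function, moved in part with these. Of 6 tetrahydrobiopterin genes outside the members, 5 were tested and all 5 were higher at P15 than at P5, with a median of 0.61 log2 units beside 0.02 over all genes. Among them were Gchfr, which encodes the feedback regulator of GTP cyclohydrolase (1.25), Pcbd1, a pterin dehydratase gene (0.71), and Pts, which encodes the next enzyme after Gch1 (0.58). From P15 to adults 1 of these 5 was higher, Pcbd1 (0.19), and 3 were lower, with Gchfr (-0.74) and Pts (-0.42) among them. Ddc, which makes serotonin from hydroxytryptophan, was higher at P15 than at P5 (1.25, adjusted p = 5.7e-24) and was not called for adult over P15 (0.05, adjusted p = 0.394). Slc7a5, a large neutral amino acid transporter gene that serves tryptophan uptake, was lower at P15 than at P5 (-1.90, adjusted p = 2.8e-23). Tph1, the hydroxylase gene of the gut and pineal gland, was at or near 0, with at most 0.62 CPM in any sample. Of 6 genes of amine breakdown and low-affinity uptake, 2 were higher and 3 lower at P15 than at P5. Akr1b3, an aldose reductase gene, was higher (0.68, adjusted p = 4.7e-06) and Slc29a4, a monoamine transporter gene, was lower (-0.97, adjusted p = 1.7e-12). The serotonin neuron markers did not move as a block from P5 to P15. Of 7, Ddc (1.25) and the receptor gene Htr1a (0.48) were higher, while the transcription factor genes Gata3 (-1.29), Lmx1b (-0.89) and Fev (-0.40) were lower. For adult over P15, 5 of the 7 were higher and 0 lower, with Htr1a (0.81), Gata3 (0.80) and Fev (0.93) among them.

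Between the crosses, Tph2 and Slc6a4 were lower in F1i than in F1r at P5. The F1i over F1r log2 change was -0.28 ± 0.06 for Tph2 (adjusted p = 0.0117) and -0.20 ± 0.05 for Slc6a4 (adjusted p = 0.0350), on the levels given above. The ranges overlapped for both genes, and the median F1i sample was below the median F1r sample. Gch1 was at -0.26 ± 0.07 and narrowly missed the call (adjusted p = 0.0548). It passed with the replicate number as a block (adjusted p = 0.0378). Maob was at -0.34 ± 0.15 (adjusted p = 0.413), Qdpr at -0.08 ± 0.05 (adjusted p = 0.630) and Maoa at -0.01 ± 0.05 (adjusted p = 0.965). These 2 calls among 6 stand beside 1.17% of all genes (0.673% lower), 64 higher and 87 lower in F1i, or 48 and 110 with library totals unscaled by TMM. DESeq2 gave similar sizes, -0.26 for Tph2 and -0.19 for Slc6a4, but called neither (adjusted p = 0.424 and 0.481).

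The myelin list was also lower in F1i at P5. Of 7 serotonin neuron markers 1 was called, Fev, which was lower in F1i (-0.31, adjusted p = 0.00869), and the median of the 7 was -0.16 beside 0.00 over all genes. Their summed level was 336 to 425 CPM in F1i and 373 to 479 CPM in F1r. Of 9 myelin genes tested 8 were lower in F1i, with a median of -0.46, and their summed level did not overlap, at 1438 to 1699 CPM in F1i and 1905 to 2386 CPM in F1r. Of 5 tetrahydrobiopterin partners, 3 synthesis partners and 6 breakdown partners tested, 0 were called, and Ddc stood at -0.18 (adjusted p = 0.114). Of the other cell type lists, 1 of 8 astrocyte genes and 1 of 5 GABA and glutamate neuron genes were lower in F1i, and 1 of 5 catecholamine neuron genes was higher. Within groups, over 46 samples, the myelin list was called with neither Tph2 nor Slc6a4. Its r was -0.11 with Tph2 (adjusted permutation p = 0.692) and -0.30 with Slc6a4 (adjusted permutation p = 0.235). The serotonin neuron list had r = 0.42 with Tph2 and 0.77 with Slc6a4. The part of either list in the cross difference of Tph2 and Slc6a4 at P5 was not tested.

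At P15 and in adults 0 of the 6 genes were called between crosses, by edgeR, by DESeq2 or with a replicate block, and 0 had an unadjusted p under 0.05. The changes ranged from -0.14 (Maoa) to -0.07 (Maob) at P15, beside 0.0467% of all genes called, and from -0.05 (Qdpr) to 0.15 (Maoa) in adults, beside 0.111%. The change of the cross difference with age was called for 0 of 6 genes for P15 minus P5 (0.0147% of all genes) and 0 of 6 for adult minus P15 (0.0367%), again with 0 under an unadjusted p of 0.05. For Tph2 it was 0.18 ± 0.15 for P15 minus P5 (adjusted p = 0.9999), so the P5 difference was not shown to differ from that at P15.

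The alleles of the autosomal genes were close to balance. Tph2 had a CAST share of 47.0, 49.7 and 52.5% in F1i and 46.9, 49.6 and 53.7% in F1r at P5, on 441 to 1026 counts per sample. At P15 its share was 46.2, 46.8 and 47.8% in F1i and 45.7, 46.4 and 48.9% in F1r, and in adults 44.2, 45.8 and 47.1% in F1i and 44.2, 45.1 and 46% in F1r. At P5 6 of 14 samples were above 50%, while all 14 P15 samples and all 18 adult samples were below it. The 95% Wilson interval of the share, which covers counting error only, excluded 50% in none (0) of the P5 samples, in 13 of 14 P15 samples and in all 18 adult samples. The log2 CAST over C57 ratio of Tph2, as the mean of the crosses, was -0.01 ± 0.03 at P5 (adjusted p = 0.747), -0.18 ± 0.02 at P15 (adjusted p = 5.9e-13) and -0.27 ± 0.01 in adults (adjusted p = 5.6e-21). The shift itself was called between P5 and P15 (-0.17 ± 0.03, adjusted p = 2.7e-05) and between P15 and adults (-0.09 ± 0.02, adjusted p = 0.00211). The second shift missed the call when each allele column had its own TMM factor (-0.06, adjusted p = 0.0514).

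**Figure D2:**
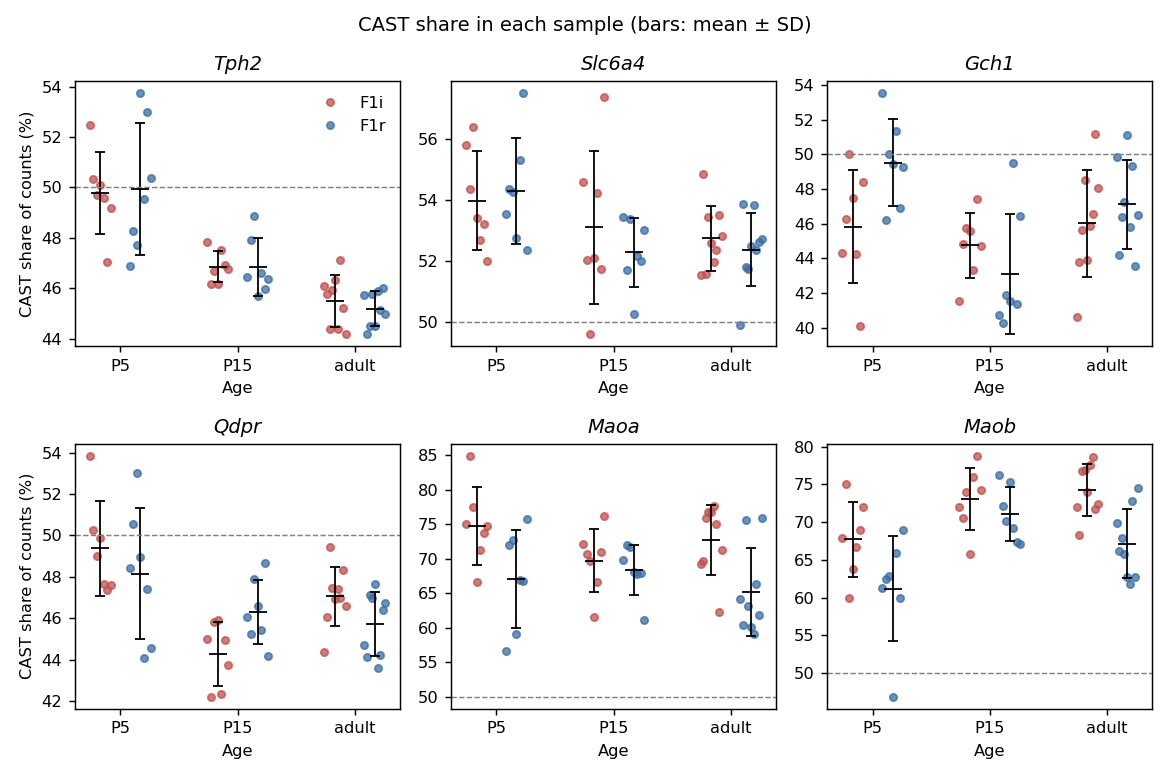
CAST share of the counts of each gene in percent (vertical axis, with a different range in each panel) by age, with F1i left of F1r, a point for each sample, bars for the mean ± SD and a dashed line at 50%. The Tph2 points lie around 50% at P5 and all below it at P15 and in adults, Slc6a4 lies above 50% in all but 2 samples, and Maoa and Maob lie above it in all but a single sample of Maob.

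Slc6a4 leaned to CAST at each age. Its CAST share was 52.0, 53.4 and 56.4% in F1i and 52.3, 54.3 and 57.5% in F1r at P5, 49.6, 52.1 and 57.4% in F1i and 50.2, 52.1 and 53.4% in F1r at P15, and 51.5, 52.6 and 54.8% in F1i and 49.9, 52.5 and 53.9% in F1r in adults. The share was above 50% in 14 of 14, 13 of 14 and 17 of 18 samples. The log2 ratio was 0.23 ± 0.03 at P5 (adjusted p = 1.9e-11), 0.16 ± 0.02 at P15 (adjusted p = 3.5e-07) and 0.14 ± 0.01 in adults (adjusted p = 8.5e-11). Its changes with age, -0.08 and -0.01, were not called (adjusted p = 0.131 and 0.805). With a TMM factor for each allele column the P15 minus P5 change of -0.11 was called (adjusted p = 0.0280).

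Gch1 leaned to C57 at each age, and Qdpr at P15 and in adults. Both had the largest estimate at P15, but the adult minus P15 change was called for neither. Gch1 had a CAST share of 40.1, 46.3 and 50.0% in F1i and 46.2, 49.5 and 53.5% in F1r at P5, 41.5, 44.8 and 47.4% in F1i and 40.3, 41.5 and 49.5% in F1r at P15, and 40.6, 45.9 and 51.2% in F1i and 43.6, 46.5 and 51.1% in F1r in adults. Its log2 ratio was -0.13 ± 0.05 at P5 (adjusted p = 0.0221, and 0.199 with DESeq2), -0.35 ± 0.04 at P15 (adjusted p = 3.7e-09) and -0.20 ± 0.03 in adults (adjusted p = 2.1e-06). The P15 minus P5 change of -0.21 ± 0.07 was called (adjusted p = 0.0292), and not without the 3 P15 samples that stood apart (-0.18, adjusted p = 0.101). The adult minus P15 change of 0.15 ± 0.06 missed the call (adjusted p = 0.0503), and passed with a TMM factor for each allele column (0.18, adjusted p = 0.0166) and without the adult F1i sample 1_1 (0.18, adjusted p = 0.0140), which held the lowest adult share of Gch1, 40.6%.

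Qdpr had a CAST share of 47.3, 49.0 and 53.8% in F1i and 44.1, 48.4 and 53.0% in F1r at P5, 42.2, 44.9 and 45.9% in F1i and 44.2, 46.1 and 48.7% in F1r at P15, and 44.4, 47.0 and 49.4% in F1i and 43.6, 46.4 and 47.7% in F1r in adults. All P15 and adult samples were below 50%, and 10 of 14 P5 samples. The log2 ratio was -0.08 ± 0.04 at P5 (adjusted p = 0.113), -0.28 ± 0.03 at P15 (adjusted p = 1.7e-10) and -0.21 ± 0.02 in adults (adjusted p = 3.1e-12). The P15 minus P5 change was -0.20 ± 0.05 (adjusted p = 0.00248, and -0.19 with adjusted p = 0.00626 without the 3 P15 samples that stood apart), and the adult minus P15 change of 0.07 ± 0.04 was not called (adjusted p = 0.221).

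With Maoa and Maob, the allele ratio was called for 4 of the 6 genes at P5 and for all 6 at either later age, beside 58.4%, 58.4% and 67.8% of all genes, so calls this frequent are the background here. Its change was called for 3 of 6 genes for P15 minus P5, Tph2, Gch1 and Qdpr, all toward C57, beside 18.7% of all genes, 9.65% toward C57. For adult minus P15 it was called for 1 of 6, Tph2, beside 15.5%, 8% toward C57. How reads were assigned to alleles is not given in the sources used here, so a ratio at a single age and a mapping preference for either strain cannot be told apart.

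Several partners had larger allele ratios than the autosomal members. Ddc had log2 CAST over C57 ratios of -0.47, -1.09 and -0.91, in the order P5, P15 and adult, and its P15 minus P5 change of -0.62 was called (adjusted p = 3.9e-24). Pts was at -0.67, -0.78 and -0.52, and Akr1b3 at 2.58, 3.09 and 2.86. Slc17a8, the vesicular glutamate transporter gene that many raphe serotonin neurons share, was at -0.56, -1.18 and -0.90. Tetrahydrobiopterin partners were called 1 higher and 2 lower of 4 tested at P5. At P15 2 were higher and 2 lower of 5 tested, and among adults 3 were higher and 2 lower of 5. Over all genes 31.5% were called higher and 26.9% lower at P5, 31.1% and 27.3% at P15, and 35.9% and 31.9% in adults. Calls in both directions are thus the background here.

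**Figure D3:**
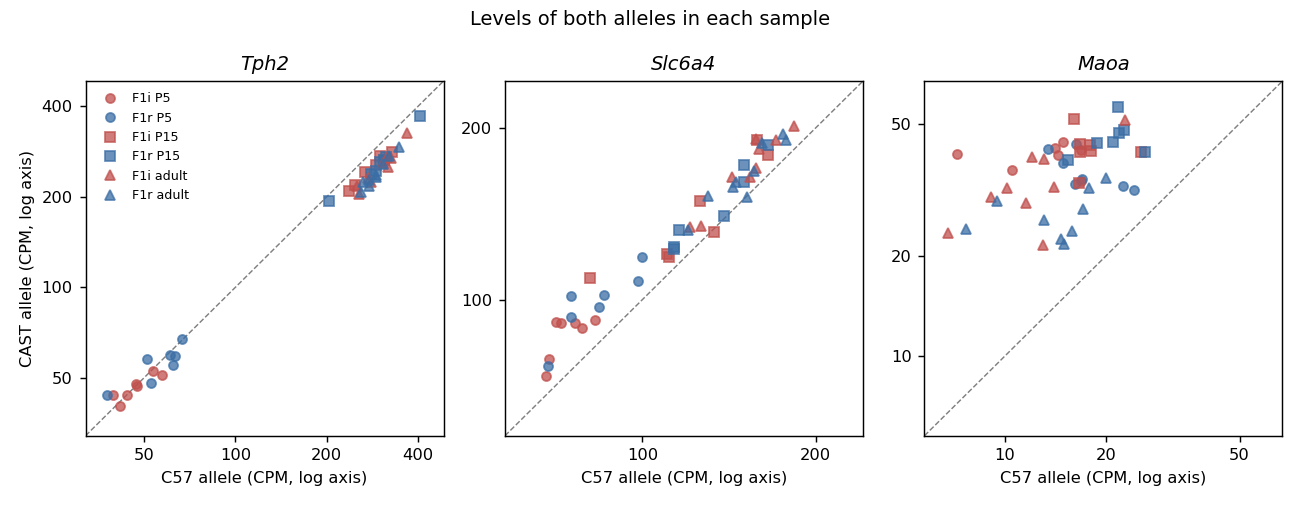
Level of the CAST allele (vertical axis, CPM, log scale) against that of the C57 allele (horizontal axis, CPM, log scale) in each of 46 samples for Tph2, Slc6a4 and Maoa, with red for F1i, blue for F1r, and circles, squares and triangles for P5, P15 and adults. Tph2 and Slc6a4 points run along the dashed line of equal levels, Tph2 under it after P5 and Slc6a4 above it in all but 2 samples, while the Maoa points form a cloud above it.

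Maoa was far from balance at all ages, as X-linked genes here were in general. Its CAST share was 66.6, 74.7 and 84.9% in F1i and 56.7, 66.9 and 75.8% in F1r at P5, 61.6, 70.6 and 76.2% in F1i and 61.2, 68.1 and 72.0% in F1r at P15, and 62.2, 75 and 77.6% in F1i and 59.1, 63.1 and 75.9% in F1r in adults. Maob had 60.0, 67.9 and 75% in F1i and 46.9, 62.5 and 69.0% in F1r at P5, where it rested on 21 to 62 counts per sample. At P15 Maob had 65.8, 74.0 and 78.8% in F1i and 67.1, 70.2 and 76.2% in F1r, and in adults 68.3, 73.9 and 78.7% in F1i and 61.7, 66.1 and 74.6% in F1r. The shares overlapped between crosses at each age. The log2 ratios were 1.31 ± 0.07, 1.15 ± 0.05 and 1.16 ± 0.06 for Maoa and 0.90 ± 0.12, 1.35 ± 0.05 and 1.30 ± 0.05 for Maob at P5, P15 and in adults. All 6 were called, as were ratios toward CAST for 98.7%, 98.5% and 98.6% of X-linked genes tested.

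The summed counts of 517 other X-linked genes, without genes known to escape X inactivation, measured the balance of the X chromosomes in each sample. Their CAST share was 73.8 ± 2.88% in F1i and 65.9 ± 4.97% in F1r at P5 (SD, n = 7 each), 70.3 ± 3.63% in F1i and 67.9 ± 3.34% in F1r at P15, and 72.4 ± 4.66% in F1i and 65.9 ± 4.59% in F1r in adults (n = 9 each). Set against this balance, the mean log2 ratio of Maoa exceeded that of the other X-linked genes by 0.09 at P5, -0.01 at P15 and -0.01 in adults, with a two-sided sign-flip permutation test over samples giving adjusted p = 0.348, 0.854 and 0.869 over X-linked genes. The SE of these differences was 0.07, 0.03 and 0.05 log2 units, so Maoa stood close to the balance of its chromosome at this precision.

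Maob departed from that balance, in a direction that differed with age. At P5 its log2 ratio was lower than that of the other X-linked genes by an offset of -0.38 ± 0.08, below 0 in 13 of 14 samples (adjusted permutation p = 0.00243). At P15 the offset was 0.20 ± 0.06, above 0 in 11 of 14 samples (adjusted permutation p = 0.0136), and in adults 0.10 ± 0.04, above 0 in 14 of 18 (adjusted permutation p = 0.0294). Such offsets were frequent on the X: 20.7% of X-linked genes were called higher and 23.6% lower at P5, 23.4% and 22.0% at P15, and 32.1% and 21.0% in adults. Against the median of single X-linked genes in place of their sum, the adult offset of Maob was 0.07 (permutation p = 0.0744). The change of the Maob allele ratio itself, 0.45 ± 0.20 for P15 minus P5, was not called by edgeR (adjusted p = 0.121), and was 0.54 with limma on the log2 ratio of each sample (adjusted p = 3.7e-04). No difference of the Maob offset between crosses was detected, with exact permutation p = 0.370 at P5, 0.869 at P15 and 0.547 in adults.

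**Figure D4:**
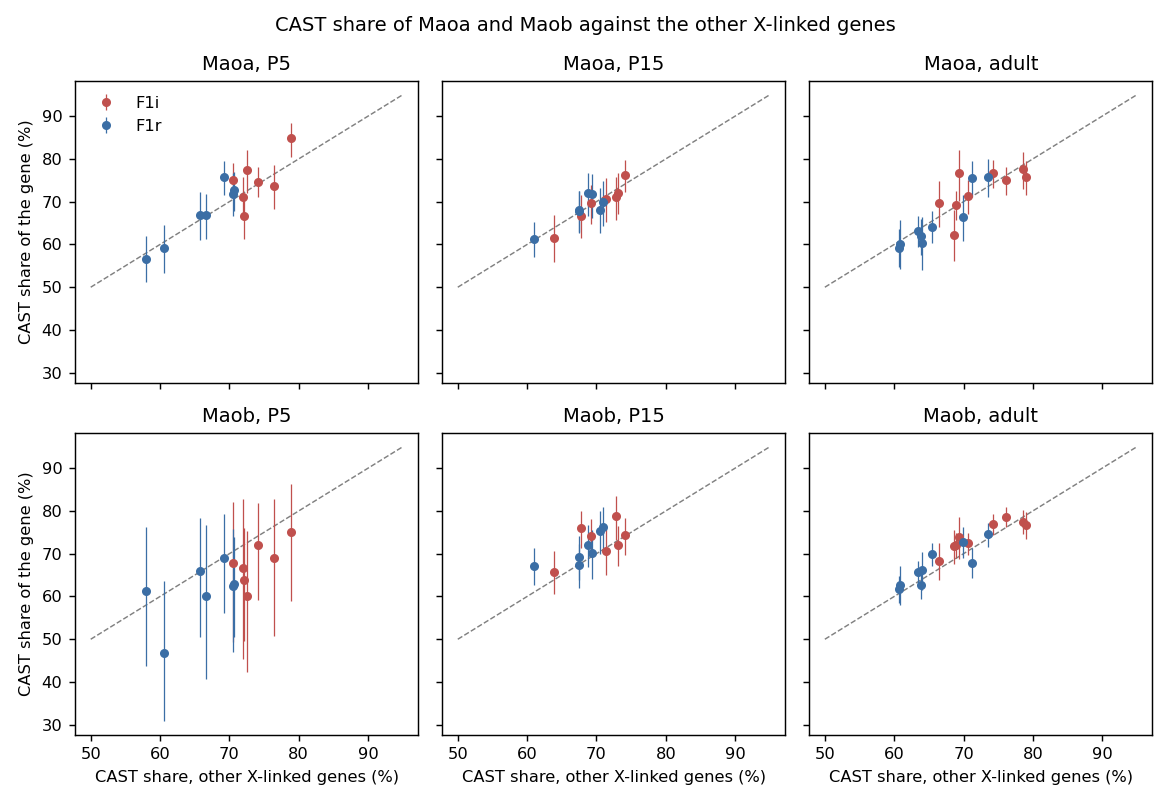
CAST share of Maoa (upper panels) and Maob (lower panels) in percent against the CAST share of the other X-linked genes in percent, with a point for each sample at P5, P15 and adult age, red for F1i, blue for F1r, 95% Wilson intervals as bars and a dashed line of equal shares. Maoa follows the line at all 3 ages, and Maob lies below it in most samples at P5 and above it in 11 of 14 at P15.

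Across samples, the Maoa share followed the balance of the X chromosomes. With the cross means removed, Pearson's r was 0.86 at P5 (adjusted permutation p = 0.00162), 0.91 at P15 (adjusted permutation p = 0.00184) and 0.82 in adults (adjusted permutation p = 3.5e-04), and Spearman's rho was 0.78, 0.79 and 0.80. Without the 2 samples farthest from the median X share r was 0.74, 0.73 and 0.78. Within the crosses r was 0.65 in F1i and 0.96 in F1r at P5, 0.96 in F1i and 0.86 in F1r at P15, and 0.68 in F1i and 0.94 in F1r in adults. For Maob r was 0.59 at P5 (adjusted permutation p = 0.0564), 0.66 at P15 (adjusted permutation p = 0.0228) and 0.88 in adults (adjusted permutation p = 1.9e-04), with rho of 0.66, 0.60 and 0.87. The P15 relation of Maob rested on 2 samples, without which r was 0.31, while r was 0.58 at P5 and 0.86 in adults. A positive relation was called for 73.3%, 60.0% and 88.6% of the X-linked genes tested at P5, P15 and in adults. With libraries thinned to equal depth, Maoa was also the member whose allele ratio varied between samples beyond counting error, with a dispersion of 3.93 at P5 (adjusted p = 6.6e-04, one-sided chi-square test, adjusted over all genes) and 3.0 in adults (adjusted p = 0.00349), where 1 is the value of binomial counting. Calls were made for 1.04% of all genes and 27.0% of X-linked genes at P5, and 1.87% and 47.6% in adults. At P15, where 1.45% of genes and 20.7% of X-linked genes were called, Maoa was at 1.98 (adjusted p = 0.406). On the counts as deposited, without thinning, Maob was called in adults with a dispersion of 6.10 (adjusted p = 8.6e-12), beside 5.47 for Maoa, and Maoa was also called at P15 (3.18, adjusted p = 0.00892). No autosomal member was called at any age with thinned libraries.

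The parental effect takes the log2 allele ratio in F1i, subtracts that in F1r and divides by 2. It was called in adults for Maoa (0.27 ± 0.06, adjusted p = 0.00864) and Maob (0.27 ± 0.05, adjusted p = 6.5e-04), and for 0 of 6 genes at P5 and at P15. Maoa at P5 had 0.25 ± 0.07 and missed the call (adjusted p = 0.0501), and at P15 both oxidase genes were at 0.08 ± 0.06. Over all genes 2.71%, 0.742% and 2.71% were called at the 3 ages, with 2.26% higher in adults, and over X-linked genes 56.9%, 3.84% and 55.3% were called with a higher CAST ratio in F1i. The median over X-linked genes was 0.26, 0.10 and 0.25. The values of Maoa at each age, and of Maob at P15 and in adults, lay near it. At P5 Maob was at 0.19 ± 0.12, on few counts, and 330 of 384 other X-linked genes were above it. DESeq2 called Maob alone in adults (adjusted p = 0.0158, against 0.162 for Maoa), and limma on the log2 ratio called neither (adjusted p = 0.118 and 0.301). For Tph2, Slc6a4, Gch1 and Qdpr the effects were within -0.10 and 0.04 at each age and 0 were called, by edgeR, DESeq2 or limma, with an unadjusted p under 0.05 for 1, Qdpr in adults (0.04 ± 0.02, unadjusted p = 0.0498). The change of the parental effect with age was called for 0 of 6 genes in both steps, beside 0.153% and 0.129% of all genes. Unadjusted p-values under 0.05 were found there for Qdpr (0.0127) and Maob (0.0286) in the adult minus P15 step. Among the partners Ddc was the gene with a parental effect at all ages, 0.23 at P5 (adjusted p = 1.1e-07), 0.14 at P15 (adjusted p = 2.2e-05) and 0.10 in adults (adjusted p = 4.9e-05).

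The levels of the alleles of Tph2 and of Slc6a4 varied together over samples. The correlation of the log2 CPM of the alleles, with cross means removed and libraries thinned to 3692778 counts, was r = 0.97 for Tph2 and 0.88 for Slc6a4 at P15, and 0.86 and 0.89 in adults. Each was called (adjusted permutation p = 0.00139 and 0.00278 at P15, and 0.00137 for both in adults). Spearman's rho was 0.96 and 0.91 at P15 and 0.83 and 0.86 in adults. Gch1 was called in adults (r = 0.63, adjusted permutation p = 0.0199) and Qdpr at P15 (0.72) and in adults (0.70), while Maob was called at P15 (0.62) and Maoa at no age. By Spearman's rho, Gch1 in adults (0.55) and Maob at P15 (0.61) missed the threshold (adjusted permutation p = 0.0764 and 0.0842). Positive correlations were called for 31.1% of genes at P15 and 30.0% in adults, with medians of 0.47 and 0.40 over all genes. Without the 3 P15 samples that stood apart, Tph2 was at 0.98, Slc6a4 at 0.81 and Maob at 0.76, and Qdpr lost its call (0.64, adjusted permutation p = 0.226). Without the adult F1i sample 1_1 the adult values were 0.86, 0.87, 0.70 and 0.78 for Tph2, Slc6a4, Gch1 and Qdpr. At P5 Tph2 had r = 0.78 and Slc6a4 0.79 and neither was called (adjusted permutation p = 0.146 and 0.130), beside 0.205% of all genes and a median of 0.10.

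For certain pairs of members, the summed levels also moved together within groups. Over 46 samples, with the means of the 6 groups removed, Tph2 and Gch1 had r = 0.79, Slc6a4 and Gch1 0.69, Tph2 and Slc6a4 0.56, Gch1 and Maob 0.53 and Tph2 and Maob 0.50. Spearman's rho was 0.81, 0.70, 0.58, 0.60 and 0.55 for the same pairs. Without the 2 samples farthest from the median of the second-named gene r was 0.76, 0.67, 0.55, 0.56 and 0.61. Without the 2 farthest for the first-named gene it was 0.74, 0.65, 0.57, 0.46 and 0.40. With each first-named gene tested against all 10084 genes, adjusted permutation p was 0.0458 for Tph2 with Gch1, 0.0124 for Slc6a4 with Gch1 and 0.0331 for Gch1 with Maob. For Tph2 with Slc6a4 and with Maob the result depends on which gene is named first. With Tph2 first the adjusted permutation p was 0.0560 for Slc6a4 and 0.120 for Maob, and with Tph2 second it was 0.0154 for Slc6a4 and 0.0260 for Maob. Without the adult F1i sample 1_1 r was 0.79 for Tph2 with Gch1, 0.76 for Slc6a4 with Gch1 and 0.60 for Tph2 with Slc6a4. Slc6a4 and Maob had r = 0.24 and were not called (adjusted permutation p = 0.242 with Slc6a4 first and 0.267 with Maob first). Qdpr had r between -0.23 and 0.20 with every other member, and adjusted permutation p from 0.294 to 0.741. By age, Gch1 and Maob stood at r = 0.09 at P5, 0.66 at P15 and 0.95 in adults, and Tph2 and Maob at -0.02, 0.90 and 0.82. At P5 Maob had 21 to 62 counts, and counting error is a large part of its spread there. Adult samples with the second label number 1 had the highest mean Gch1, Maob and Tph2 in both crosses. Only cross means were removed within adults, and the part of this number in the adult correlations was not tested. The part of the number of serotonin neurons in a sample was not tested either.

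**Figure D5:**
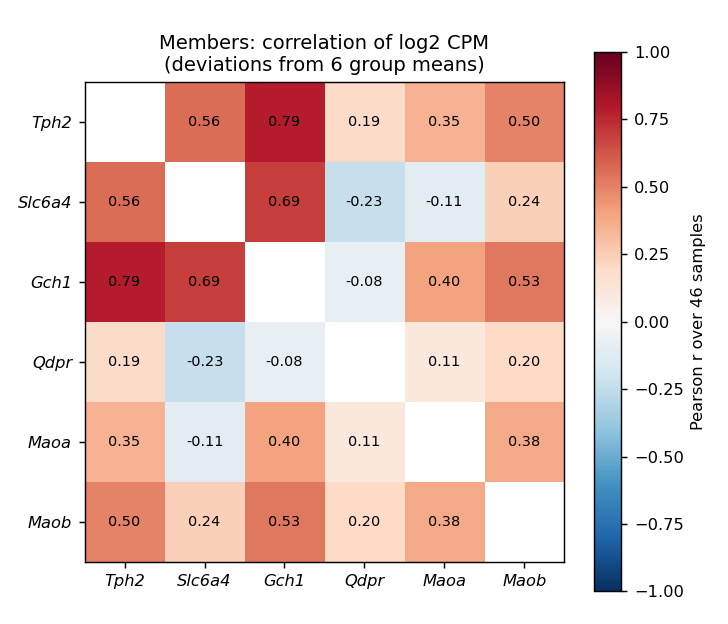
Pearson correlation of the log2 CPM of each pair of the 6 genes over 46 samples after the means of the 6 groups are removed, with the colour scale from -1 to 1 and the value printed in each cell. The block of Tph2, Slc6a4 and Gch1 holds 0.56 to 0.79, and the row of Qdpr lies between -0.23 and 0.20.

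Of 10084 genes with a mean of 10 CPM or more, those most like each member were named by the highest r over the same deviations. Tph2 was most like Ddc (r = 0.83), Slc17a8 (0.81) and Cthrc1 (0.80), and Slc6a4 most like Fev (0.83), Gm45837 (0.83) and Slc7a8 (0.80). Gch1 was most like Slc17a8 (0.82), Tph2 (0.79) and Slc22a3 (0.71), a low-affinity monoamine transporter gene. Qdpr was most like Mrpl9, Idh3a and Kdelr2 (0.70 each), Maob most like Mrap2 (0.72), Scn9a (0.65) and Nts (0.64), and Maoa most like Eloc (0.88), Sh3bgrl (0.88) and Fgd4 (0.87). Without the adult F1i sample 1_1 the Maoa values were 0.83, 0.82 and 0.81. Spearman's rho for these 18 pairs ranged from 0.54 to 0.84. The unadjusted permutation p of each was 0.0001, the smallest that 10000 permutations can give, save 0.0002 for Qdpr with Mrpl9. These genes were picked by the highest r in the same samples, so a small unadjusted p adds no support. Adjusted over all genes compared, permutation p was 0.0458 for each of the 3 Tph2 genes. By Spearman's rho Mrpl9, Idh3a and Kdelr2 missed the threshold for Qdpr (adjusted permutation p = 0.0756, 0.0894 and 0.0504). Adjusted p-values under 0.05 were reached with 0.407% of genes for Tph2, 2.43% for Gch1, 4.05% for Qdpr, 11% for Slc6a4, 11.3% for Maob and 50.2% for Maoa. The level of Maoa thus moved with that of many genes.

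Set against the mean log2 level of the fixed lists, over 60 pairs of a member and a list, Slc6a4 followed the serotonin neuron markers (r = 0.77, rho = 0.77, adjusted permutation p = 0.003 for each). Tph2 (r = 0.42, adjusted permutation p = 0.0412) and Gch1 (r = 0.52, adjusted permutation p = 0.00600) followed them less closely. Qdpr followed the myelin list (r = 0.57, rho = 0.58, adjusted permutation p = 0.00400). Without the 2 samples farthest from the median these values were 0.75 for Slc6a4, 0.35 for Tph2, 0.47 for Gch1 and 0.48 for Qdpr. By Pearson's r, Slc6a4 was also called with the synthesis partners (0.71, adjusted permutation p = 0.003). These were 3 genes, Ddc, Slc7a5 and Slc3a2, with no vesicle gene among them. Ddc is in the serotonin neuron list as well, so these 2 relations are not separate. Maoa was called with negative r with the microglia markers (-0.61, adjusted permutation p = 0.0140) and the amine breakdown and uptake partners (-0.58, 0.0132). The same held for Maoa with the GABA and glutamate neuron markers (-0.52, 0.0274). Without the 2 samples farthest from the median the Maoa values were weaker, at -0.37, -0.38 and -0.34 in the same order. Spearman's rho was -0.44, -0.47 and -0.45. Maoa values without the adult F1i sample that stood apart are not given for these lists. Maob was not called with the astrocyte markers (0.11, adjusted permutation p = 0.692) or the serotonin neuron markers (0.19, adjusted permutation p = 0.379). The difference between these correlations was not tested.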

How the data were processed

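RNA of the dorsal raphe nucleus was sequenced as single-end reads of 50 bp, per the labels' protocols. The authors deposited whole-number counts per gene for the CAST and the C57 allele of each sample, with Novoalign and the build mm9 named in the submitters' processing notes. How reads were assigned to an allele is not given in the sources used here. All 92 columns were used. The summed alleles were tested with edgeR 4.0.16 (quasi-likelihood, TMM, R 4.3.3), and the allele ratio with edgeR with the sample as a block. For the allele ratio, a gene had to average at least 20 counts per sample over both alleles. The summed alleles had a separate filter on low counts, which left 12919 genes at P5, against 12070 for the allele ratio. DESeq2 1.42.0 and limma 3.58.1 were alternatives. Correlations used 10000 permutations, offsets up to 100000 sign flips and a pseudocount of 0.5, and allele correlation and dispersion used libraries thinned to 3692778 counts. Simulated data were used to test the cross difference and the allele ratio at P5, and the functions for allele correlation and dispersion. Other calculations were not tested in this way. All 6 members were named at every age, of each list the counts and mostly the genes with the smallest p, and the 3 genes most like each member. The members and lists were chosen with earlier results of these data known. Alternatives without the samples that stood apart were added after the data were seen. Results of certain list genes are not reported here.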

Additional observations from a re-analysis of the deposited data

Results flagged for a closer look

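A check for a single sample far from the rest of its group marked 3 of 72 sets of levels or shares, and chance marks about 1 in 20. The CAST share of Maoa was lowest in the F1r P15 sample 7, at 61.2% with a 95% Wilson interval from 57 to 65.1%, and the other X-linked genes of that sample had 61.0%. The level of Maoa was highest in the adult F1i sample 1_1, at 74.1 CPM, the adult sample that also stood apart over all genes. The CAST share of Maob was lowest in the F1r P5 sample 4, at 46.9% on 32 counts, with an interval from 30.9 to 63.6% and 60.5% for the other X-linked genes.

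The log2 allele ratio differed between ages by the test of the change itself in 4 cases. For P15 minus P5 it changed by -0.17 for Tph2, -0.21 for Gch1 and -0.20 for Qdpr, and for adult minus P15 by -0.086 for Tph2.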

How the results depend on the processing

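Of 600 values of single members under an alternative, 573 stayed called or stayed uncalled, 13 gained a call and 14 lost it. With a call in either setting, 0 reversed direction. The direction of values uncalled in both settings was not compared. The number of members called fell to 0 with DESeq2 for the cross difference at P5, and to 3 with F1r samples alone for adult over P15. For the parental effect it was 1 at P5 without a count filter, and in adults 1 with DESeq2, 0 with limma and 1 with limma and a replicate block. It was 2 for the adult minus P15 change of the allele ratio without the adult F1i sample 1_1. With a TMM factor for each allele column, Qdpr at P5, the P15 minus P5 change of Slc6a4 and the adult minus P15 change of Gch1 gained a call, and the adult minus P15 change of Tph2 lost it. The adult offset of Maob against the median X-linked gene was 0.068. Without thinning, 1 member was called for allele correlation at P5, and for dispersion 1 at P15 and 2 in adults. The cause of these changes was not tested.

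The labels do not say whether F1i and F1r samples of the same number at P5 or P15 share more than that number. Correlations of their deviations were -0.10 to 0.07 at P5 and -0.38 to 0.73 at P15, with 0.73 for number 1 and 0.65 for number 6 at P15. Not every sample correlated best with its own number. The replicate block gave 156 genes and 3 members at P5, against 151 and 2 without it. In adults the cross difference was called for 15 genes, 56 with DESeq2, 77 with the block and 306 with samples summed over the first label number, with 0 members in each. The parental effect was called for 327 genes at P5, against 120 with DESeq2, 100 with limma and 150 with the block, and for 344 in adults, against 138, 92 and 115. Maob at P5 is limited by 21 to 62 counts per sample.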

Other observations

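Adult labels carry a pair of numbers whose meaning is not given. Adult samples of different crosses that shared the second number had a median correlation of their deviations over genes of 0.31 (27 pairs), against -0.11 for those that did not (54 pairs). Mean Maob was 93.9 CPM in F1i and 86.9 CPM in F1r for second number 1, 68.5 CPM in F1i and 71.4 CPM in F1r for number 2, and 76.2 CPM in F1i and 74.0 CPM in F1r for number 3 (n = 3 each). Mean Gch1 was likewise highest for number 1, at 79.5 CPM in F1i and 75.5 CPM in F1r. Mean Maoa was 59.5 CPM in F1i and 47.6 CPM in F1r for number 1, and 37.6 CPM in F1i and 35.8 CPM in F1r for number 3. Adult samples that shared the first number differed in the CAST share of the other X-linked genes by 2.70 to 12.5 percentage points.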
